A study of Homo sapiens with 18 samples.

Results

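H1975 is an established human lung adenocarcinoma line whose growth is driven by mutant EGFR, and the comparison described here is between 2 ways of reading the same RNA. The 6 libraries labelled H1975 ONT and H1975 Illumina, of 18 libraries in the series, were selected by platform and cell line. The series' design text gives 3 independent RNA samples of the line, and libraries with the same replicate number were taken as the same sample. All groups came from untreated cells grown to near confluency in serum-containing medium, dissociated and frozen. The ONT libraries were made by full-length cDNA synthesis and PCR with an Oxford Nanopore kit, from 1.5 ng of poly(A)-selected mRNA with 14 PCR cycles, and were pooled by barcode on 5 PromethION flow cells. For Illumina, 3.75 ng of the same kind of mRNA was fragmented by heat, passed through a strand-marking kit, amplified in 11 cycles and sequenced as paired reads of 75 nt. Both carried synthetic spike-in RNAs called sequins. Input, chemistry, amplification, sequencer and, for part of the genes, the version of the gene identifier change together. Their parts in a difference cannot be told apart. H1975 is also 1 genetic background.

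As background, a nanopore cDNA read can cover a transcript from its poly(A) tail towards its start, so each read stands for about one cDNA molecule. In a fragmented library a long transcript yields more countable fragments than a short one. A gene's CPM (its count scaled to the effective library size) therefore means a different thing on each platform. The ratios below describe protocols and the counting of genes, not a change in the cells.

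Gene totals lay between 81467393 and 92417847 counts in the ONT libraries and between 33362018 and 40200473 in the Illumina libraries. Of the 58444 genes shared by both kinds of file, 27878 had enough counts to be tested. Of 11 markers of lung adenocarcinoma epithelium, 10 reached 1 CPM on both platforms. The list summed to 5586 to 5934 CPM in ONT and 3358 to 3560 CPM in Illumina, mostly from the keratins and MUC1. The lung-lineage members stood lower. NKX2-1, NAPSA and SFTPB had means of 14.5, 1.10 and 0.94 CPM in ONT and 18.7, 1.29 and 1.04 CPM in Illumina. Of 10 markers of blood cells, 3 reached 1 CPM on both platforms, and the list summed to 58.7 to 67.3 CPM in ONT and 52.9 to 58.4 CPM in Illumina, mostly from the lysosomal gene CD68. PTPRC, the pan-leukocyte marker, stayed at or below 0.178 CPM in each of the 6 libraries. Fibroblast markers summed to 48.3 to 58.2 CPM in ONT and 259 to 290 CPM in Illumina, mostly from the collagen genes COL1A1 and COL1A2.

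Almost every gene gave a different CPM on the 2 platforms. At an edgeR adjusted p below 0.05, 24518 of 27878 genes (87.9%) differed: 12213 (43.8%) were higher in ONT and 12305 (44.1%) were lower. When a difference had to exceed 2-fold to be called, 16352 genes (58.7%) passed: 8383 (30.1%) higher in ONT and 7969 (28.6%) lower. The 3 ONT and 3 Illumina values did not overlap in 24673 genes (88.5%). Among 15735 tested protein-coding genes the calls leaned to the Illumina side, with 35.3% higher in ONT and 53.7% lower, and beyond 2-fold 20.3% higher and 34.4% lower. These directions are relative to the scaling used (trimmed mean of M values): with library totals alone the median gene moved by -1.24 on the log2 scale, and 7099 genes were then higher in ONT and 18112 lower. Nothing in the labels says that the 3 RNA samples came from separate cultures beyond calling them independent, so p-values measure the spread between these samples.

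The composition of the libraries differed far more between platforms than within them. Cytosolic ribosomal protein genes held 10.2% ± 0.0595 of counts in ONT and 2.05% ± 0.00509 in Illumina (SD over 3 libraries). Processed pseudogenes, which are intronless copies of mRNAs inserted elsewhere in the genome, held 23.1% ± 0.165 in ONT and 4.38% ± 0.0370 in Illumina. Protein-coding genes held 62.0% ± 0.115 and 84.3% ± 0.0206, and a list of 63 very long mRNAs held 0.235% ± 0.0110 and 2.06% ± 0.0425. None of these shares overlapped between platforms, and the exact permutation test of 3 libraries against 3 gave 0.1 for each, the smallest p this design allows.

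Ribosomal protein genes were among the most one-sided of the 30 gene lists examined. Their mRNAs are short and abundant and encode the structural proteins of the ribosome. All 51 large-subunit genes and all 33 small-subunit genes were higher in ONT, beside 43.8% of all tested genes, although with library totals alone RPL4 turned to a log2 ratio of -0.29. The median log2 ratio was 3.61 for the large and 3.71 for the small subunit, beside -0.03 over all tested genes. Where a list of coding genes below has no share beside it, 35.3% of all tested protein-coding genes were higher and 53.7% lower.

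RPL41 encodes one of the shortest human proteins. It stood at 7362, 6470 and 7123 CPM in the ONT libraries and at 118, 115.2 and 121 CPM in the Illumina libraries. Every ONT value was far above every Illumina value, and the log2 ratio was 5.89 ± 0.06 (SE; edgeR adjusted p = 4.31e-20). RPL39, another very short large-subunit protein, read 2018, 1981 and 2158 CPM in ONT against 21.2, 21.3 and 24.6 CPM in Illumina, a log2 ratio of 6.52 ± 0.07 with no overlap. Both coding sequences, of 78 and 156 nt, are printed here to their stop codons and from GENCODE 44 on GRCh38. These lengths leave out the untranslated parts of the mRNAs, which the transcript lengths given elsewhere include. RPL41 lies at chr12:56116590-56117967 (+ strand) and RPL39 at chrX:119786504-119791630 (- strand).
RPL41: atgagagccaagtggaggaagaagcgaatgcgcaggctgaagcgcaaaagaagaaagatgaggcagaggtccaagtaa
RPL39: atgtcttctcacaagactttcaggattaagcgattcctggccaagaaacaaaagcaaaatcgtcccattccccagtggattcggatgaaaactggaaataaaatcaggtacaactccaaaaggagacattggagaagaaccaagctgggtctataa

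RPS28 and RPS27, small-subunit proteins, had the largest ratios of their list. RPS28 was counted at 3906, 3746 and 3797 CPM in ONT and at 6.66, 6.07 and 6.005 CPM in Illumina (log2 ratio 9.25 ± 0.07). RPS27 was counted at 2103, 2015 and 1997 CPM in ONT and at 14.2, 13.8 and 14.3 CPM in Illumina (log2 ratio 7.17 ± 0.06). In both genes the Illumina libraries were low together and the groups lay far apart. At the other end, RPL4 was counted at 882, 927 and 890 CPM in ONT and at 463, 471 and 464 CPM in Illumina, a log2 ratio of 0.95 ± 0.05 (edgeR adjusted p = 5.98e-12). RPL4 has a canonical transcript of 2741 nt, against a median of 970 nt for its list.

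**Figure D1:**
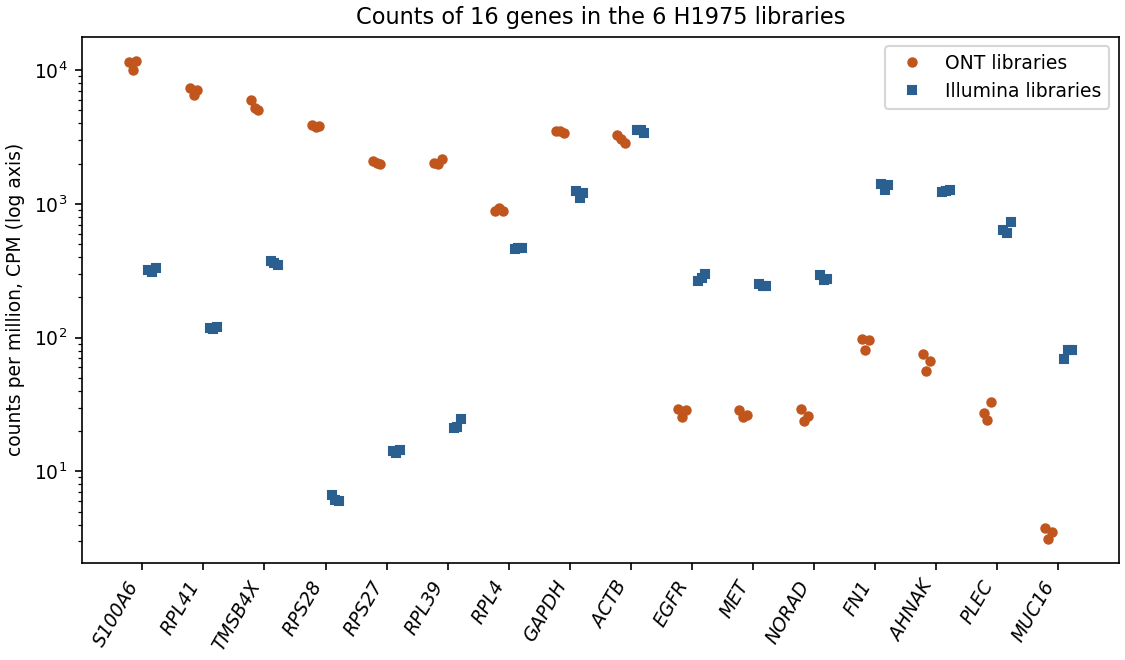
CPM (log axis) of 16 genes in the 3 ONT (circles) and 3 Illumina (squares) libraries of H1975, 1 point per library. S100A6, RPL41 and RPS28 lie far higher in ONT, the ACTB values lie close together, and EGFR, AHNAK and PLEC lie far lower in ONT.

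Nuclear genes of the mitochondrion followed the ribosomal genes. Respiratory complex I, the entry point of electrons from NADH, had 37 of 37 tested subunits higher in ONT (median log2 ratio 3.05). Of 42 subunits of complexes II to V, 39 were higher and 1 lower (median 2.90), and of 77 mitochondrial ribosomal proteins, 74 were higher and 2 lower (median 1.86). NDUFB1, an accessory subunit of complex I with a transcript of 317 nt, read 317, 303 and 314 CPM in ONT and 14.8, 14.2 and 14.3 CPM in Illumina (log2 ratio 4.43 ± 0.06). SDHA, the flavoprotein of complex II, was the 1 lower subunit, at a mean of 66.6 CPM in ONT and 100 CPM in Illumina (log2 ratio -0.59 ± 0.07). ATP5F1A, the alpha subunit of ATP synthase, had overlapping groups and a log2 ratio of -0.10 ± 0.05 (edgeR adjusted p = 0.102). It passed with no low-count filter (-0.18; adjusted p = 0.00695) and with library totals alone (-1.33; adjusted p = 3.24e-13).

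The transcripts of the mitochondrial genome itself were the reverse. All 37 of its genes were listed at 0 in each ONT library and had counts in Illumina, where they took 7.29% ± 0.111 of all counts. MT-CO1, which encodes the catalytic subunit of cytochrome c oxidase, was counted at 6660, 6219 and 6318 CPM in Illumina. In the deposited counts, against a floor of 3 counts over the 3 ONT libraries, this is at least 355037-fold lower in ONT. That bound covers counting error only. It is no measure of the RNA if mitochondrial alignments were left out of the ONT counts. The same 37 genes were at 0 in the ONT libraries of HCC827, the series' other line, and in the PacBio libraries of both lines. The sources used here do not say whether mitochondrial alignments entered the long-read counts.

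Other short mRNAs were also high in ONT. Of 36 genes for ubiquitin-like, thymosin and similar small proteins, 35 were higher and 1 lower (median log2 ratio 3.14). TMSB4X, which encodes the actin-binding peptide thymosin beta 4, read 5947, 5174 and 5066 CPM in ONT and 374, 359 and 350 CPM in Illumina (log2 ratio 3.90 ± 0.06). Of 24 annexins, S100 proteins and metallothioneins, which bind calcium or metals, 21 were higher and 2 lower (median 2.53). S100A6 read 11541.9, 10094 and 11784.5 CPM in ONT and 319, 309 and 333 CPM in Illumina, a log2 ratio of 5.12 ± 0.07 (edgeR adjusted p = 3.99e-19). The 2 lower genes were the annexins ANXA11 and ANXA6, with log2 ratios of -1.34 ± 0.06 and -0.96 ± 0.09.

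Sm and LSm proteins and proteasome subunits leaned the same way. Among Sm and LSm proteins, many but not all of which coat spliceosomal RNAs, 20 of 23 were higher and 2 lower (median log2 ratio 2.63). SNRPG was the highest, at a mean of 311 CPM in ONT and 12.5 CPM in Illumina, and LSM11, with a transcript of 6567 nt, the lowest at a log2 ratio of -2.28 ± 0.16. Of 35 proteasome subunits, 30 were higher and 4 lower (median 1.44). SEM1, a small lid protein, had a log2 ratio of 3.35 ± 0.06, whereas PSMD2, a large base subunit, had -1.87 ± 0.07.

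Replication-dependent histone mRNAs end in a stem-loop instead of a poly(A) tail, and both protocols started from poly(A)-selected RNA. Of 63 listed, 41 were abundant enough to test, and 35 of those were higher in ONT and 1 lower (median log2 ratio 1.98). The tested genes passed a filter that either platform could satisfy, so the count covers only these 41. H4C12, a histone H4 gene, read 16.3, 18.2 and 19.8 CPM in ONT and 0.660, 0.811 and 0.709 CPM in Illumina (log2 ratio 4.62 ± 0.12). H2AC11, a histone H2A gene, read 6.46, 6.35 and 7.11 CPM in ONT and 6.35, 6.44 and 7.13 CPM in Illumina, with overlapping groups, though it turned to a log2 ratio of -1.23 with library totals alone and -0.37 among genes with equal identifier versions. Among 12 histone variants with poly(A) tails, 8 were higher and 4 lower, from H3-3A (log2 ratio 4.70 ± 0.07) to the linker histone H1-10 (-2.31 ± 0.06).

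Non-coding RNAs divided by kind. Of 29 genes that host small nucleolar RNAs in their introns, 25 were higher in ONT and 3 lower (median log2 ratio 2.14). Over all tested genes 43.8% were higher and 44.1% lower. GAS5 read 462, 510 and 590 CPM in ONT and 44.01, 51.7 and 55.3 CPM in Illumina (log2 ratio 3.37 ± 0.11). Small structured RNAs had 28 of 46 members tested, with 21 higher and 4 lower. Their median of 2.01 turned to -1.04 with Illumina counts per kb. Among all tested small nucleolar, small nuclear and miscellaneous RNA genes, 82.5%, 83.6% and 66% were higher. The lean was thus not particular to this list. MicroRNA genes, outside the list, had 34.4% higher and 58.8% lower. RN7SL1, the RNA of the signal recognition particle, was lower in ONT and scattered, at 7.07, 11.4 and 13.3 CPM against 17.1, 33.8 and 36.5 CPM (log2 ratio -1.46 ± 0.42; edgeR adjusted p = 0.0248). This call was lost without ONT replicate 1 or 2 or without Illumina replicate 2 or 3 (edgeR adjusted p = 0.0680 to 0.0802). Among the 32 tested members of a list of long non-coding RNAs, 15 were higher and 12 lower. This was near the shares of all 6269 tested long non-coding genes, 48.8% higher and 34.2% lower. The list's median of 0.22 turned to -1.01 with library totals alone. NORAD, a cytoplasmic RNA that binds PUMILIO proteins, read 29.4, 23.7 and 25.98 CPM in ONT and 292, 271 and 275 CPM in Illumina (log2 ratio -3.41 ± 0.08). MALAT1, a nuclear speckle RNA, had a log2 ratio of 0.47 ± 0.06, which turned to -0.76 with library totals alone. Among genes with equal identifier versions it was 0.10 and the call was lost (edgeR adjusted p = 0.106).

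Very long mRNAs were the mirror image of the ribosomal genes. Of 63 listed, 61 were lower in ONT and 2 higher, beside 44.1% of all genes lower, and their median log2 ratio was -2.90. AHNAK, a giant scaffold protein, read 75.5, 56.3 and 66.5 CPM in ONT and 1234, 1256 and 1271 CPM in Illumina (log2 ratio -4.25 ± 0.09; edgeR adjusted p = 5.12e-13). PLEC, which encodes the cytoskeletal linker plectin, read 27.4, 24.4 and 32.8 CPM in ONT and 640, 604 and 729 CPM in Illumina (log2 ratio -4.54 ± 0.12). In both genes the 3 ONT libraries were low together and far from the Illumina values. FLNA (filamin A), DYNC1H1 (the dynein heavy chain) and FASN (fatty acid synthase) had log2 ratios of -3.99 ± 0.07, -3.72 ± 0.05 and -4.12 ± 0.07. The 2 higher genes were HERC2 and MDN1.

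**Figure D2:**
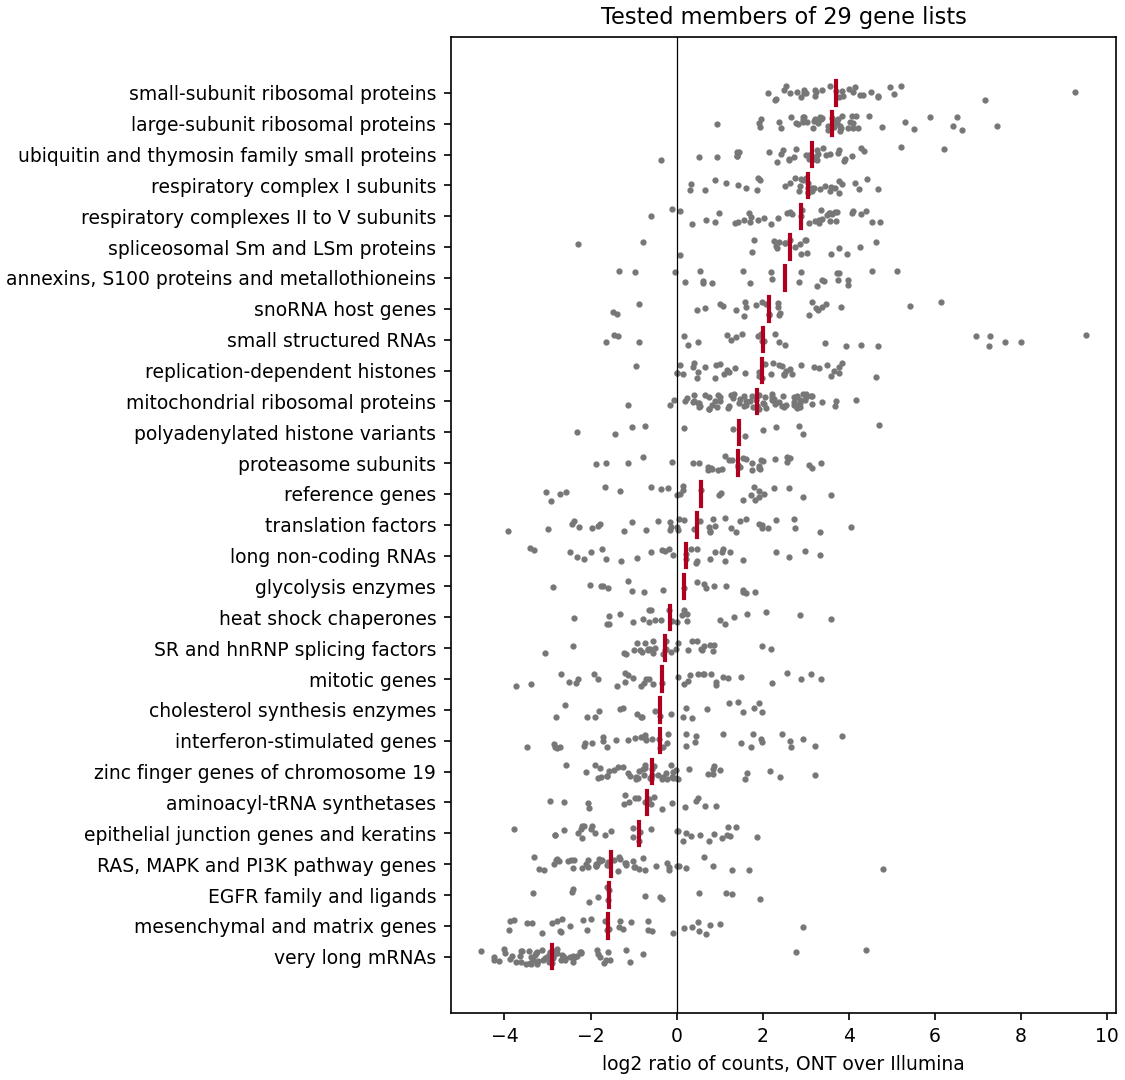
Log2 ratio of counts, ONT over Illumina, for each tested member (grey points) of 29 gene lists, with the list's median (red bar). The list medians run from 3.71 for small-subunit ribosomal proteins to -2.90 for very long mRNAs, and the mitochondrial genome, at 0 in ONT, is left out.

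EGFR, the mutated receptor tyrosine kinase of H1975, read 29.5, 25.4 and 28.9 CPM in ONT and 267, 281 and 301 CPM in Illumina. The ONT values were low in all 3 libraries, and the log2 ratio was -3.34 ± 0.07 (edgeR adjusted p = 1.21e-16). Of 15 tested genes of the EGFR family and its ligands, 10 were lower and 3 higher (median log2 ratio -1.56), beside 53.7% and 35.3% of all coding genes. The median turned to 0.081 with Illumina counts per kb and to 0.36 over the 4 genes with no other gene in their span. The receptors ERBB3 and ERBB2 had log2 ratios of -2.40 ± 0.08 and -0.74 ± 0.05. Among ligands, TGFA was lower (-2.04 ± 0.08) and EREG was lower (-1.56 ± 0.16), while AREG (1.15 ± 0.15) and HBEGF (1.28 ± 0.11) were higher, though with library totals alone these 2 became -0.08 and 0.05. AREG has a transcript of 1234 nt and EREG one of 4615 nt.

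Downstream, 41 of 50 RAS, MAPK and PI3K pathway genes were lower in ONT and 5 higher (median log2 ratio -1.52). MET, the receptor for hepatocyte growth factor, read 28.9, 25.4 and 26.3 CPM in ONT and 250, 242 and 245 CPM in Illumina (log2 ratio -3.19 ± 0.06). PIK3CB, a catalytic subunit of PI3 kinase, had -3.19 ± 0.07, and RICTOR, a component of mTOR complex 2, -3.32 ± 0.07. HRAS had -0.16 ± 0.08 and did not pass the test (edgeR adjusted p = 0.0630). It passed with no low-count filter (-0.24; adjusted p = 0.00946), without Illumina replicate 2 (-0.25; adjusted p = 0.0174) and with library totals alone (-1.40; adjusted p = 4.96e-11).

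Genes used to place a carcinoma between epithelial and mesenchymal states lay on both sides. Of 34 mesenchymal and matrix genes, 25 were lower in ONT and 4 higher (median log2 ratio -1.59). FN1 (fibronectin) read 97.5, 80.9 and 96.4 CPM in ONT and 1411, 1281 and 1388 CPM in Illumina (log2 ratio -3.89 ± 0.07). VIM, the intermediate filament vimentin, had only -0.66 ± 0.05. Of 33 epithelial junction genes and keratins, 19 were lower and 12 higher (median -0.88), near the shares of all coding genes, of which 53.7% were lower and 35.3% higher. The median turned to 0.33 over its 7 genes with no other gene in their span and to 0.82 over the 8 with equal identifier versions. The adherens junction genes CTNND1 and CDH1 had -3.78 ± 0.06 and -1.52 ± 0.10, while the keratins KRT19, KRT8 and KRT18 had 1.39 ± 0.06, 1.23 ± 0.06 and 1.06 ± 0.06. With library totals alone KRT8 turned to -0.0022 and KRT18 to -0.17.

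Common reference genes were no more level between platforms than other genes. Of 27 listed, 15 were higher in ONT and 9 lower, so the share called was near the 87.9% of all tested genes. Their median of 0.57 turned to -0.67 with library totals alone. ACTB (beta actin) was near parity, at 3279, 3059 and 2853 CPM in ONT and 3564, 3585 and 3398 CPM in Illumina (log2 ratio -0.20 ± 0.05; edgeR adjusted p = 0.00211), a call lost without ONT replicate 3 (adjusted p = 0.0706) and with sequin scaling (adjusted p = 0.218). GAPDH, a glycolytic enzyme, read 3493, 3536 and 3395 CPM in ONT and 1243, 1105 and 1201 CPM in Illumina (log2 ratio 1.55 ± 0.05). PPIA, the prolyl isomerase cyclophilin A, had 3.58 ± 0.05, and the transferrin receptor TFRC had -2.92 ± 0.06. Interferon-stimulated genes spread just as widely, with 16 of 40 higher and 24 lower (median -0.40). The small ubiquitin-like modifier ISG15 had 3.86 ± 0.07 and the long antiviral gene OAS3 had -3.48 ± 0.07. Mitotic genes ran from CKS1B (3.37 ± 0.07) to ANLN (-3.72 ± 0.10), with 17 of 37 higher and 19 lower (median -0.33). Both counts were near those of all coding genes (35.3% higher, 53.7% lower). With Illumina counts per kb the medians turned to 0.054 and 0.14, and that of the mitotic genes was 0.63 over its 15 members with no other gene in their span.

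Over all protein-coding genes the ratio fell steadily with the length of the canonical transcript. The median log2 ratio was 3.22 under 500 nt (152 genes), 2.174 from 500 to 1000 nt, 0.70 from 1000 to 2000 nt and -0.56 from 2000 to 4000 nt. It was -1.38 from 4000 to 8000 nt and -1.64 at 8000 nt and over (1345 genes). Per doubling of length the log2 ratio changed by -0.79, -0.84 and -0.78 in the 3 pairs of libraries. Across 15722 genes Pearson's r was -0.51, -0.53 and -0.51 and Spearman's rho -0.53, -0.55 and -0.53, given as descriptions since genes are not independent replicates. Among genes with no other annotated gene in their span, a set chosen after seeing the data, the slopes were -0.98, -1.02 and -0.97. A slope of -1 per doubling is what dividing the Illumina counts by length would remove.

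**Figure D3:**
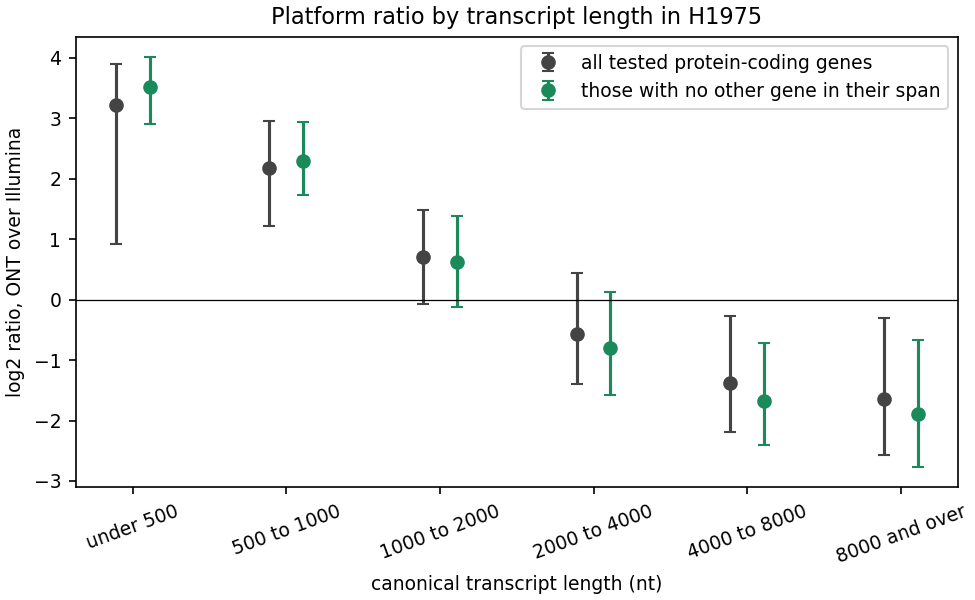
Median log2 ratio, ONT over Illumina, of tested protein-coding genes by canonical transcript length in nt, with bars from the lower to the upper quartile of genes. All genes (grey) fall from 3.22 to -1.64, and genes with no other gene in their span (green) from 3.52 to -1.89.

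GC content moved the ratio less. Between genes under 40% GC and genes of 60% GC and over, the medians of 6 bins stayed between -0.58 and -0.24. Within transcripts of 2000 to 4000 nt there was an ordered fall, from -0.18 under 40% GC to -1.001 at 60% and over. EEF1A2, a translation elongation factor with a transcript of 1773 nt, was far below its length class at a log2 ratio of -3.92 ± 0.14. Its relative EEF1A1 had 1.61 ± 0.04.

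Of the 10 coding genes leading the ONT side, 4 contained another gene that held nearly all of their ONT counts. ARMC9, a ciliary gene at chr2:231198546-231376848, was the clearest case. It read 3952, 3815 and 3887 CPM in ONT and 21.8, 21.4 and 20.6 CPM in Illumina (log2 ratio 7.51 ± 0.06). Of its 647339 ONT counts, 637145 (98.4%) were also the count of RPS28P4, a processed pseudogene of RPS28 within its span. In Illumina RPS28P4 had 493 of 3588 counts (13.7%). RPS28P4 lies at chr2:231256097-231256306 (+ strand), outside every exon of ARMC9. It differs from the 210 nt coding sequence of RPS28 at 1 position, in capitals below.
RPS28: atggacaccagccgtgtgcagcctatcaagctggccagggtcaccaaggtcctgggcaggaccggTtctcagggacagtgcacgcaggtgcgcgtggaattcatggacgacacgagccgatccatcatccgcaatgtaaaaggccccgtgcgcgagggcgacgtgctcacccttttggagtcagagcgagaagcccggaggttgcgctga
RPS28P4: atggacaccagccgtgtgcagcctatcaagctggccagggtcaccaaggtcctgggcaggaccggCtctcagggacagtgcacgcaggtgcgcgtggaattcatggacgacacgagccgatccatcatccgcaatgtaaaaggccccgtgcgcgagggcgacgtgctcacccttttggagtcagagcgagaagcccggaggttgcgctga

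The other hosts among the leading genes were CORIN, GLDC and GRAP2. CORIN, a cardiac protease gene, had 261377 ONT counts, and RPL15P7, on the opposite strand of an intron, had 260987 of them (99.9%). GLDC, which encodes glycine decarboxylase, had 24616 ONT counts, and the opposite-strand RPL23AP57 had 24434. GRAP2, a T-cell adaptor gene, had 6579, and TMA7B within it had 6526. TMA7B is a coding gene that matches the translation-associated gene TMA7 at 94.9% of 195 aligned positions, with the 10 differences in capitals.
TMA7: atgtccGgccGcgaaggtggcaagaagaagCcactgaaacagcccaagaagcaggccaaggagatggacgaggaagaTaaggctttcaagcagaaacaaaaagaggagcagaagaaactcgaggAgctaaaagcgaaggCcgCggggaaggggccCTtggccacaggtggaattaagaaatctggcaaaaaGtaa
TMA7B: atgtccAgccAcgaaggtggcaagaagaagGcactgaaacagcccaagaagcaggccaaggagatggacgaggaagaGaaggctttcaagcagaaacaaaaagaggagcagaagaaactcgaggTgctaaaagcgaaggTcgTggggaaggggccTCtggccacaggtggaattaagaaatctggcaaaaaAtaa
HERC2, 1 of the 2 very long mRNAs on the ONT side, had 272162 ONT counts, of which the opposite-strand RPL41P2 had 269611. GAB1, the adaptor that led the RAS pathway list at a log2 ratio of 4.80 ± 0.07, had 109471 ONT counts, and a processed pseudogene on its opposite strand had 109154. The 4 long non-coding genes at the top of the ONT side, LINC02320, LINC02451, ENSG00000267686 and ENSG00000268458, also shared over 99.9% of their ONT counts with a pseudogene in their span.

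These pairs were instances of a general property of the deposited counts. Genes lying wholly inside another gene, sharing no exon with any gene and holding at least 100 counts were compared with their hosts. In ONT the host's count was at or above that of the nested gene in 628 of 652 pairs (96.3%) on the same strand and in 1136 of 1177 pairs (96.5%) on opposite strands. In Illumina it was so in 516 of 520 (99.2%) and in 851 of 854 (99.6%). The nearest gene before the host, which overlaps neither, was at or above the nested gene in 32.7% and 27.8% of these pairs in ONT and in 34.6% and 28.7% in Illumina. Sums over whole gene spans, introns included and on either strand, with a read counted for each overlapping gene, would give this order, but no label or header names the counting settings. The kit marked strand in Illumina, but the sources used here do not say whether the counting used it. Exons on the opposite strand therefore make uncertain the counts of EGFR, ERBB2, HRAS, RICTOR, VIM, CDH1, KRT8, KRT18, COL1A1, GAPDH, TFRC, ISG15, ANLN, FLNA, DYNC1H1, MDN1, MALAT1, GAS5, S100A6, H1-10, H3-3A, TMA7, EEF1A1, RPL4, RPL15, RPS28 and RPS29. For RPL39, C3, CTNND1, ERBB3 and SDHA the overlapping exons lie on the same strand. If whole spans were summed, any gene whose span overlaps another is uncertain as well. This applies to 73.2% of tested protein-coding genes, PLEC among them.

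**Figure D4:**
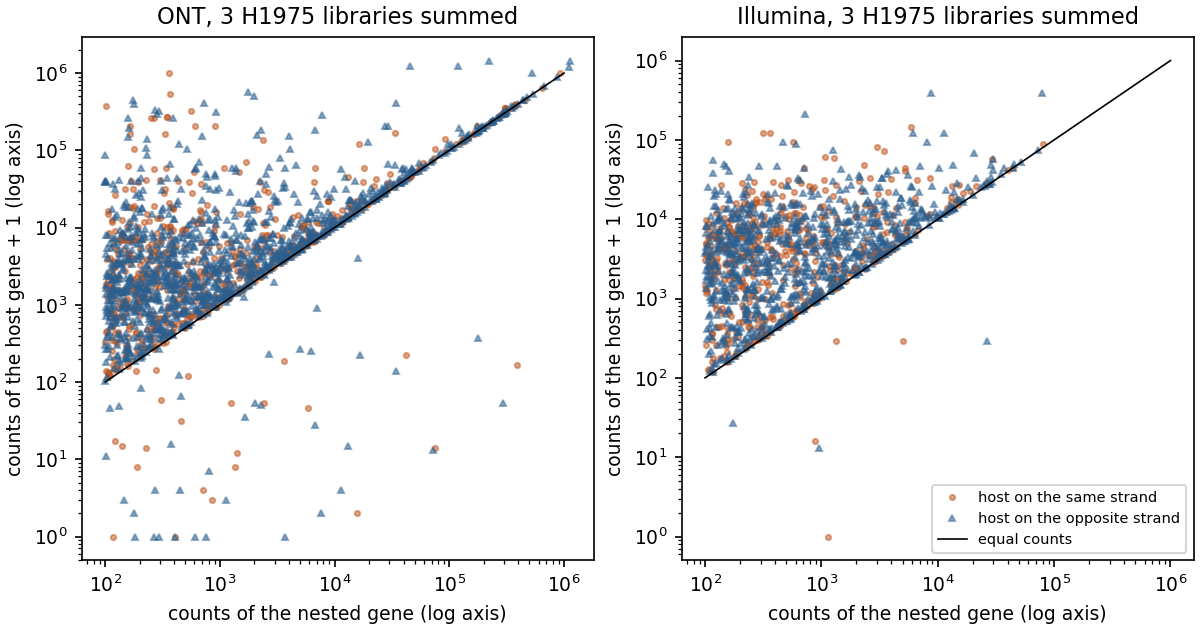
Summed counts of host genes (plus 1) against those of genes nested in them with no shared exon, both on log axes, for ONT (left) and Illumina (right) in H1975. Nearly all points lie on or above the line of equal counts for hosts on either strand, and many ONT points lie on it.

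For 502 of 5212 tested protein-coding genes with a gene nested in this way (9.63%), 1 nested gene held at least 50% of the ONT count, and in 388 of the 502 it was a processed pseudogene. In Illumina 1 nested gene held as much for 244 of the 5212 (4.68%), and in 184 of the 244 it was a processed pseudogene. Some leading genes had no such partner. NUPR2, a stress-response gene with no other gene in its span, had 2279 ONT counts and 0 Illumina counts. Against the floor of 3 counts over the Illumina libraries it was at least 768-fold higher in ONT. UBE2L5, a coding copy of a ubiquitin-conjugating enzyme gene, read 134, 127 and 122 CPM in ONT and 0.518, 0.600 and 0.453 CPM in Illumina.

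On the Illumina side, apart from the mitochondrial genome, the 4 leading long non-coding genes were nearly uncounted in ONT. LINC02245 had 0 ONT counts and 4590 Illumina counts, and SLC1A4, which lies within its GENCODE 44 span, had 753 and 4446. C2CD5-AS1 had 3 ONT and 3608 Illumina counts, and C2CD5 within it 450 and 3522. In both the ONT host fell below the nested gene. ENSG00000234162 had 0 ONT and 2031 Illumina counts, and no nested gene was found for it. LINC02136 had 20 ONT and 2225 Illumina counts and stayed above the pseudogene in its span, which had 13 and 1. The version of the identifier of all 4 differed between the 2 kinds of file. Versions were equal for 41239 of the 58444 shared genes. Among tested genes with equal versions, the median log2 ratio was 0.85 with no other gene in their span and 0.38 with one. Among those with differing versions it was -0.49 and -0.41. The part of the version in these ratios was not tested.

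Among genes with no other gene in their span and outside the mitochondrial genome, a set chosen after seeing the data, 10 coding genes led the ONT side. NUPR2 and UBE2L5, described above, came first. Of the other 8, 3 encode ribosomal proteins: RPS27, RPL9 (log2 ratio 6.62 ± 0.08) and RPL41. The others were the dehydrogenase gene DHDH (6.91 ± 0.17), PROCA1 (6.49 ± 0.13), the neurokinin receptor gene TACR2 (6.39 ± 0.20), HMGB1P1 (6.24 ± 0.13) and CT45A7, a cancer-testis antigen gene with near-identical neighbours (5.62 ± 0.07). DHDH, at 56.9, 81.6 and 72.2 CPM in ONT and 0.553, 0.616 and 0.571 CPM in Illumina, had no overlap between groups. On the Illumina side stood MUC16, the giant mucin CA-125, at 3.80, 3.12 and 3.50 CPM in ONT and 69.1, 80.5 and 80.8 CPM in Illumina (log2 ratio -4.46 ± 0.09). With it came CPD, a carboxypeptidase (-4.19 ± 0.07), BLTP1, a bridge-like lipid transfer protein (-4.18 ± 0.09), and SKI, a repressor of TGF-beta signalling (-4.18 ± 0.09).

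Ribosomal protein genes have many pseudogene copies, and the platforms divided a family's counts differently between parent and copies. Of 84 families, 79 had at least 1 copy named after the parent, 1597 copies in all. Copies held 54.9%, 54.9% and 55.1% of family counts in the ONT libraries and 37.6%, 37.4% and 37.3% in the Illumina libraries. The groups did not overlap. The share on copies was higher in ONT in 54 families and lower in 25. Adding copies to parents left all 84 families higher in ONT, with a median log2 ratio of 3.84 beside 3.62 for the parents alone.

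Single families went either way. RPS29 had 30.3% ± 0.259 of its counts on copies in ONT and 3.23% ± 0.713 in Illumina (SD over 3 libraries). RPL15 had 62.9% ± 0.165 and 38.9% ± 0.261. RPL4 had 61.8% ± 0.0352 and 33.8% ± 0.331, and its family had a log2 ratio of 1.74 where the parent alone had 0.95. RPS28 was the reverse, with 67.2% ± 0.163 on copies in ONT and 96.1% ± 0.241 in Illumina, and its family had a log2 ratio of 6.19 where the parent alone had 9.25. RPL39 copies held 52.4% ± 0.0605 in ONT and 88.7% ± 1.04 in Illumina. The sources used here do not say how reads matching several places were treated, so a parent's count and those of its copies are each uncertain.

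**Figure D5:**
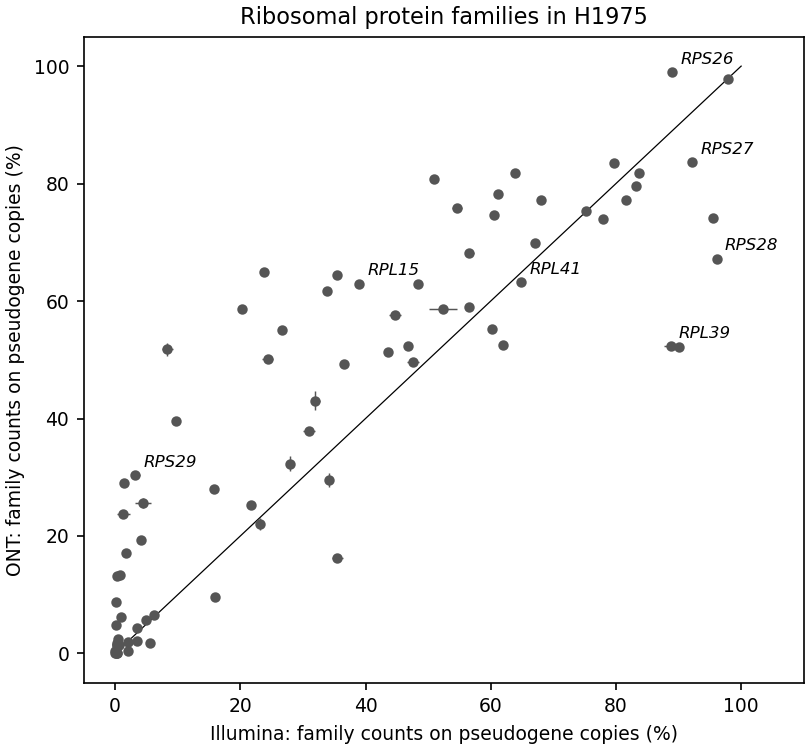
Percent of a ribosomal protein family's counts that fell on pseudogene copies, ONT against Illumina, for 79 families; points are means and bars SD over 3 libraries, and the line marks equal shares. RPS29 and RPL15 lie above the line, and RPS28 and RPL39 below it.

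Few genes were seen on 1 platform alone. With at least 10 counts in all 3 libraries of one platform and 0 in the other, 195 genes were found in ONT only, of which 141 were pseudogenes and 9 protein-coding. In Illumina only there were 108, of which 37 were mitochondrial and 20 microRNA genes. With every library thinned to 33152400 counts, the numbers became 117 and 184, so the order of the platforms turned at equal total counts.

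Within a platform the replicates were very close. Across 7608 genes with at least 10 CPM on both platforms, log2 levels of 2 ONT libraries correlated at r = 0.994 to 0.997 and those of 2 Illumina libraries at 0.997 to 0.998. An ONT and an Illumina library of one RNA sample correlated at r = 0.374 to 0.392. These are correlations across genes, which share length and base composition. In 2157 protein-coding genes free of other genes in their span, r was 0.32 to 0.34 as counted and 0.71 when the Illumina value was divided by transcript length. The median biological coefficient of variation of the 7608 genes was 7.66% in ONT and 3.96% in Illumina. ONT replicates thus spread more, though their library totals were larger. Effective library sizes after scaling were similar, at 53535600 to 59006000 in ONT and 50792200 to 61643800 in Illumina. The mean chi-square per gene between replicates was 3.52 to 21.7, so no pair looked like 1 library deposited again.

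Whether the ratios belong to H1975 or to the protocols was asked by setting them against the same ratio in HCC827, an EGFR-mutant lung adenocarcinoma line, in 1 fit over 12 libraries. The ratio differed between the lines in 2105 of 29395 genes (7.16%), with 627 (2.13%) higher in H1975 and 1478 (5.03%) lower. With the RNA sample as a block, 2259 genes were lower. The total fell to 1300, 1318 and 1352 without H1975 Illumina replicates 1, 2 and 3 and rose to 3782 without HCC827 ONT replicate 3. HCC827 Illumina replicate 2 was shallow, with 10020699 gene counts beside 36838573 and 34722416 in replicates 1 and 3. Without that library 1529 genes were called. RPL41 had a log2 ratio of 5.97 in H1975 and 5.90 in HCC827 in this fit, and MET -3.11 and -2.74. The differences were 0.07 ± 0.15 and -0.37 ± 0.17, and neither passed the test (edgeR adjusted p = 0.867 and 0.230).

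Several genes that did differ were scarce in HCC827. C3, the central complement component, had a log2 ratio of -2.18 in H1975 and 1.52 in HCC827, a difference of -3.70 ± 0.23 (edgeR adjusted p = 1.39e-08). It had 10156 ONT and 49075 Illumina counts in H1975 and 3338 and 1003 in HCC827. PSG4, a pregnancy-specific glycoprotein gene, had 2776 and 3342 counts in H1975, but 20 ONT counts and 0 Illumina counts in HCC827. MMP14, a membrane-bound matrix protease, had log2 ratios of -3.25 and -0.58, with 27 and 35 counts in HCC827. GPX3, an extracellular glutathione peroxidase, differed the other way, at 0.65 in H1975 and -3.80 in HCC827 with 14 and 169 counts there.

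Hosts of pseudogenes also appeared here. ARMC9 and HERC2 had lower ratios in H1975 than in HCC827, by -1.19 ± 0.15 each (edgeR adjusted p = 2.85e-05 and 4.23e-05). RADIL, a Rap effector gene, had 5814 ONT counts in H1975, of which RPL22P16 in its span had 5592.

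PacBio libraries of H1975 held only 41253 to 53074 gene counts each and started from total RNA size-selected near a 2 kb target, so they are given as sums. Over 3 libraries, the 84 ribosomal protein genes had 256 and 106 counts for the large and small subunit, and the very long mRNAs had 3576. EGFR had 28 counts, FLNA 1913, and RPL41 none.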

How the data were processed

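Reads were counted per gene in 3 ONT and 3 Illumina libraries of H1975. The deposited values are raw counts made by the authors in 1 file per library, and minimap2 2.17 and featureCounts are named per the submitters' processing notes, with GRCh38. Genes were joined on the Ensembl identifier without its version. The 76 sequins stayed out, and 45 second copies on the Y chromosome were added to the X copy. Names, biotypes and lengths came from GENCODE 44, which held 58207 of the 58444 shared genes.

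Tests used edgeR with trimmed-mean scaling, filterByExpr and the two-sided robust quasi-likelihood test. P-values were adjusted by Benjamini-Hochberg over all tested genes, and glmTreat tested for differences beyond 2-fold. The main fits did not use the pairing of libraries, and a block for the RNA sample was an alternative. With the block 24485 genes were called in H1975, and 3109 differed between the lines. On simulated data, 66 of 66 4-fold and 39 of 67 1.5-fold changes were recovered, with 13 false calls (7.03% of calls). The simulated libraries had the same mean profile on both platforms, few changed genes and a fixed dispersion. They therefore cannot show how the scaling behaves when most genes differ, as here. The pairing rests on the series' design text. Deviations of same-numbered libraries correlated at 0.325, 0.0733 and 0.390, each library best with its own number. HCC827 entered only through an interaction term. Floors cover counting error only.

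Named genes were the 10 largest and 10 smallest log2 ratios among protein-coding genes called beyond 2-fold, with a mean of at least 10 CPM on 1 platform, the same sign in 3 pairs and no exon overlap. To these came 4 lncRNAs each way, the 2 extremes of each list, 5 genes each way by interaction, and a fixed set. Some of these are not reported here. Other members were named after their values were seen. The members, lists and rules were chosen with earlier results of these data known.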

Additional observations from a re-analysis of the deposited data

Results flagged for a closer look

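Each result here is a gene whose ONT to Illumina log2 ratio differed between H1975 and HCC827 by the interaction term of edgeR. Values are the ratio in H1975 minus that in HCC827, with its SE. The ratio was lower in H1975 for PSG4 (-6.14 ± 0.89), SORCS2 (-4.94 ± 0.35), ROBO1 (-4.48 ± 0.44), LDHC (-4.36 ± 0.54), RADIL (-3.99 ± 0.27) and C3 (-3.70 ± 0.23). Of these, PSG4 and LDHC had 0 and 2 Illumina counts over the 3 HCC827 libraries, and SORCS2, ROBO1 and RADIL had 16, 24 and 42. The fitted value of PSG4 therefore depends on the prior count and is no bound. The matrix genes MMP14 (-2.67 ± 0.39) and COL12A1 (-1.94 ± 0.42) had 35 and 71 Illumina counts in HCC827, beside 22793 and 10108 in H1975. COL12A1 lost its call without HCC827 ONT replicate 2 (adjusted p = 0.0786).

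The ratio was also lower in H1975 for the pseudogene hosts ARMC9 (-1.19 ± 0.15) and HERC2 (-1.19 ± 0.15), and for H4C12 (-0.86 ± 0.23). H4C12 lost its call in DESeq2, in limma-voom and with either other scaling. It also lost it without H1975 ONT replicate 1 or 2, any 1 of the H1975 Illumina libraries, HCC827 ONT replicate 1 or HCC827 Illumina replicate 1 (adjusted p = 0.0535 to 0.339 over these alternatives). The ratio was higher in H1975 for GPX3 (4.45 ± 0.36), PLCB1 (3.01 ± 0.24), C14orf28 (2.79 ± 0.21), POLE (2.61 ± 0.59) and ECHDC2 (2.57 ± 0.19). POLE lost its call without any 1 of the 3 H1975 Illumina libraries (adjusted p = 0.0657 to 0.0752), without HCC827 ONT replicate 1 (0.0505) and among genes with no other gene in their span (0.0612). In H1975, 43681 of the 45352 ONT counts of ECHDC2 were also counted for a pseudogene in its span. The part of low HCC827 counts and of nested genes in these differences was not tested.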

How the results depend on the processing

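Except where the values here differ, counts of called genes stayed within 1.5 times under the alternatives tried, and the replicate block changed no other call by that much. With library totals alone, 7099 genes were higher in ONT, 4736 higher and 14224 lower beyond 2-fold. Of the line differences, 3358 were then called, 2661 higher and 697 lower in H1975. Medians turned to -0.76 for translation factors, -1.01 for long non-coding RNAs, -1.07 for glycolysis and -0.67 for reference genes. Log2 ratios turned to -0.17 for KRT18, -0.76 for MALAT1, -0.74 for RN7SK, -0.082 for AREG, -0.67 for GPX3, -1.23 for H2AC11, -0.0022 for KRT8 and -0.29 for RPL4.

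With Illumina counts per kb, medians turned to -1.04 for small structured RNAs, 0.53 for zinc finger genes, 0.32 for SR and hnRNP factors, 0.22 for cholesterol synthesis, 0.11 for chaperones, 0.14 for mitotic genes, 0.081 for the EGFR family and 0.054 for interferon-stimulated genes.

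The next sets were chosen after seeing the data and hold fewer genes. Among genes with no other gene in their span, 6295 were called, 3173 higher and 3122 lower, and beyond 2-fold 4388, 2299 and 2089. The line difference then had 312 calls, 86 higher and 226 lower, and the length slope was -0.99. Medians became -0.20 for translation factors, -3.43 for long non-coding RNAs (1 gene), 0.11 for SR and hnRNP factors, -1.26 for glycolysis, 0.63 for mitotic genes, 0.36 for the EGFR family and 0.33 for epithelial genes. Among genes with equal versions, 13009 were called, 6637 higher and 6372 lower, and beyond 2-fold 9402, 5017 and 4385. Medians became -0.040 for translation factors, -0.078 for polyadenylated histones, -0.34 for long non-coding RNAs, -1.96 for glycolysis, 0.35 for cholesterol synthesis, 0.20 for chaperones, 0.82 for epithelial genes and -1.62 for reference genes, and H2AC11 became -0.37.

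For the line difference, genes lower in H1975 numbered 2378 with no low-count filter and 2259 with the replicate block (3109 called). Leaving out 1 library gave 1300 to 3782 calls, 477 to 1077 higher and 717 to 2705 lower in H1975. Genes found only in ONT numbered 306 at 5 counts, 125 at 20 and 117 after thinning, when 184 were found only in Illumina. With no low-count filter the length slope was -0.66. The cause of these changes was not tested beyond the smaller gene sets. The part of low HCC827 counts in the line difference was not tested.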
